A study of Bos taurus with 14 samples.

Results

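Mature miRNA names with a number from 2286 to 2904 made up 261 of the 1030 mature names in the count table of cattle peripheral white blood cells (PWBC). They were taken by number alone, with any letter or arm suffix, except bta-miR-2332, bta-miR-2411-3p and bta-miR-2478, which were left out by the rule. The number range itself used no difference between heifers. Of the names left out, the study reported bta-miR-2332 as higher and bta-miR-2478 as lower in subfertile heifers. The group results below therefore do not cover every miRNA numbered in this range. The names used 221 different numbers, from 2286 to 2489 and from 2881 to 2904, and belonged to 228 precursors.

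Blood was drawn at weaning from 14 Angus-Simmental crossbred heifers, and 1 small RNA library was made per heifer. The 7 fertile heifers (FH) later became pregnant to artificial insemination (AI), and the 7 subfertile heifers (SFH) did not become pregnant. The methods describe the same oestrus synchronization, fixed-time AI and later exposure to bulls for all of them, with no other treatment, and the groups were chosen to be alike in weaning age and body weight. The labels name no genotype, and PWBC are a mixture of leukocyte types whose proportions were not recorded.

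A miRNA gene is transcribed as a long RNA, from which a hairpin precursor is cut in the nucleus and a short duplex in the cytoplasm. The strand from the 5′ side of the hairpin is named 5p and the one from the 3′ side 3p, and as a rule 1 of them is loaded into an Argonaute protein and represses mRNAs that pair with its seed, while the other is degraded. miRNA numbers are given in the order of discovery. The numbers in this range were assigned mostly to miRNAs found by small RNA sequencing of cattle tissues, and few of them have a known target or function, unlike the older miRNAs shared among mammals. Many lie inside introns of protein-coding genes and can be transcribed with their host gene.

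Each heifer had between 1754971 and 5468341 counts on mature miRNAs, so that a count of 0 allows up to 3 counts, or 0.549 to 1.71 CPM (counts scaled to a common library total), for counting error only. Detection was lowest in 4 libraries. Among the miRNAs outside the range, FH heifers 20, 22 and 29 and SFH heifer 30 had 275 to 303 with a count, and the other 10 heifers had 313 to 373, with no clear gap between them. The main values are also given without these 4 libraries, called low-detection libraries here, which leaves 4 FH and 6 SFH heifers. Of 9 leukocyte miRNAs fixed as markers, 9 were retained by the filter on low counts, and their summed level was 96624 to 161751 CPM in FH and 89505 to 187243 CPM in SFH. The 3 erythroid markers summed to 1574 to 3712 CPM in FH and 1462 to 9234 CPM in SFH, with bta-miR-144 at 0 in every heifer. The platelet and endothelial markers (2 of 2 retained) summed to 22.4 to 68.3 CPM in FH and 4.52 to 46.9 CPM in SFH, the 3 muscle markers to 0 to 85.6 and 0.650 to 275 CPM, and the liver marker to 0 to 4.65 and 0 to 2.30 CPM. The filter kept 2 of 3 erythroid, 1 of 3 muscle and 0 of 1 liver markers, and markers outside it were not tested between the groups. No tested marker passed the thresholds used for differentially expressed miRNAs (DEMIs). The part of these cell types in the results that follow was not tested.

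Most of the bovine-discovered miRNAs were not seen in PWBC. No count in any heifer was found for 152 of the 261 names (58.2%), and 109 (41.8%) had at least 1 count in at least 1 heifer. Of all other mature miRNAs, 34.3% of 769 had no count. The miR-2284 and miR-2285 families, numbered just below them and also first described in cattle, had a count for 72.3% of 148 names, and miRNAs numbered above 2904 for 51.2% of 207. Within the range, 104 of 238 names numbered up to 2489 (43.7%) and 5 of 23 names numbered 2881 or higher (21.7%) were detected.

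The detected names were seldom shared by all heifers. A count was present in 1 heifer only for 43 of the 109 (39.4%, against 12.7% of the other detected miRNAs), in 2 to 6 heifers for 34, in 7 to 13 heifers for 27 and in all 14 heifers for 5. These 5 were bta-miR-2484, bta-miR-2419-5p, bta-miR-2299-3p, bta-miR-2336 and bta-miR-2376. The filter for the group test, a CPM of 1 or more in at least 7 heifers, was passed by 29 names (11.1%), against 312 of 769 (40.6%) of all other miRNAs.

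**Figure D1:**
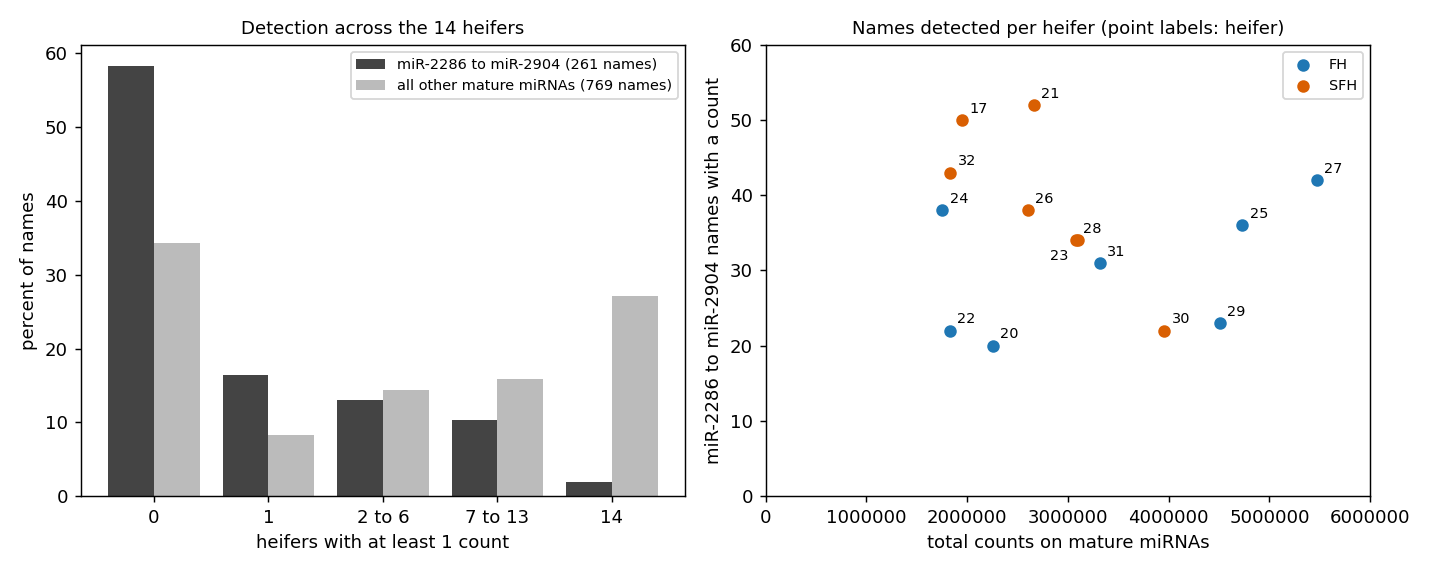
Left, percent of names (y axis) by the number of heifers with at least 1 count (x axis), for the 261 miRNAs numbered 2286 to 2904 and the 769 other mature miRNAs. Right, number of the 261 names with a count in each heifer against the total counts of that heifer, where 1 point is 1 heifer, labelled by its number. Names without a count made up 58.2% of the range and 34.3% of the other miRNAs, and the lowest points on the right are FH heifers 20, 22 and 29 and SFH heifer 30.

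A name seen in 1 heifer was often seen more than once in it. The 43 names had 1 to 46 counts in their heifer (median 10), with 10 or more for 23 of them and a single count for 6. The highest were bta-miR-2347 with 46 counts in FH heifer 27, bta-miR-2321 with 35 counts in SFH heifer 26, and bta-miR-2412 and bta-miR-2350 with 33 and 32 counts in FH heifer 25. Of all 3654 entries of the 261 names in 14 heifers, 485 (13.3%) were above 0, their median was 22 counts, and 18 of them (3.71%) were single counts, against 2.85% of the entries above 0 of the other miRNAs. The libraries were amplified by PCR and no removal of copies is described, so several counts in 1 heifer can stem from 1 molecule.

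Some names had identical counts, so that the counts do not tell them apart. bta-miR-2319a and bta-miR-2319b, both inside CKAP5, each had 8 counts, in SFH heifer 32 only. In the same heifer only, bta-miR-2358, inside RCC2, and bta-miR-2410, inside DEAF1, each had 7 counts. Whether names with equal counts shared reads was not tested. The names bta-miR-2887 (310 counts on each of 2 lines) and bta-miR-2904 (552 counts on each of 3 lines) repeat the same counts for each precursor, and 1 line of each was used. Among the other names with letters, bta-miR-2450a had 63 counts in 6 heifers, bta-miR-2450b had 17 counts and bta-miR-2450c had 4 counts in 1 heifer each, and bta-miR-2450d, bta-miR-2325a, bta-miR-2325b, bta-miR-2325c, bta-miR-2300a-5p and bta-miR-2300b-3p had none.

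The number of the 261 names with a count was 20 to 42 in FH (median 31, mean 30.3 ± 8.73, SD, n = 7) and 22 to 52 in SFH (median 38, mean 39.0 ± 10.4, SD, n = 7). Over all mature miRNAs the number was also higher in SFH, with 348 ± 45.2 in FH and 383 ± 34.1 in SFH. SFH heifers 21 and 17 had the most, with 52 and 50, and FH heifer 20 had the fewest, with 20, and the groups overlapped over most of their range. Fewer cells of a type and less RNA per cell cannot be told apart in such bulk samples. Reduced to the smallest total of 1754971 counts, the expected numbers were 30.0 ± 8.51 in FH and 38.2 ± 10.5 in SFH. The difference was smaller for names with at least 10 counts, of which FH had 25.4 and SFH 26.6 on average. That limit was not adjusted for library total, and the mean total was higher in FH (3.41e+06) than in SFH (2.74e+06). Without the low-detection libraries, 36.8 ± 4.57 names were detected in FH (n = 4) and 41.8 ± 7.86 in SFH (n = 6), but these libraries were picked by the number of miRNAs detected and 3 of the 4 are FH, so a smaller difference follows from their removal.

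More names were detected in more SFH than FH heifers (63) than the reverse (29), with 17 equal, and over all 614 detected miRNAs these numbers were 232, 95 and 287. Counts were present only in SFH heifers for 33 names and only in FH heifers for 19, of which 26 and 17 were names seen in 1 heifer, and over all detected miRNAs the numbers were 89 and 42. In Fisher's exact test (two-sided) of presence, 0 of the 109 names had an unadjusted p of at most 0.05, where 0% of all 614 miRNAs did. With 7 heifers per group, this test gives no p below 0.0699 to a name counted in 4 or fewer, or in 10 or more, heifers. The 0 is therefore no result for such names, which include all names seen in 1 heifer. The smallest p-values, 0.0699 by Fisher's exact test (adjusted p = 1), belonged to bta-miR-2440, present in 3 of 7 FH and 7 of 7 SFH heifers, and to bta-miR-2441, inside L3MBTL2, present in 0 of 7 FH and 4 of 7 SFH heifers with 4 to 33 counts. With the low-detection libraries left out, 58 names were present in more SFH and 35 in more FH heifers, where the groups held 6 and 4 heifers. A name present in every heifer then counts for the larger group, so these numbers show no direction.

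All 261 names together took 0.0713 ± 0.0200% of the counts in FH (SD, n = 7) and 0.0745 ± 0.0193% in SFH (SD, n = 7), from 0.0385% in FH heifer 27 to 0.0955% in SFH heifer 32. The difference lay well within the spread of either group, and without bta-miR-2484 it turned, with 0.0591% in FH and 0.0523% in SFH. Few names made up most of this share. Of 29464 counts in all, bta-miR-2484 and bta-miR-2419-5p held 41.0%, the 10 highest 70.6% and the 29 retained names 89.1%. Even these were of low or medium abundance in PWBC, with mean levels of 2.39 to 172 CPM (median 9.42) where the other retained miRNAs had a median of 93.3 CPM. The 3 names that the rule left out were higher, with 2663 CPM for bta-miR-2478, 1351 CPM for bta-miR-2332 and 780 CPM for bta-miR-2411-3p. Together they took 0.463 ± 0.106% of the counts in FH and 0.495 ± 0.220% in SFH (SD). bta-miR-2484 ranked 131st and bta-miR-2419-5p 141st among the 341 retained miRNAs.

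The leading name differed between heifers. bta-miR-2419-5p was highest in 6 heifers and bta-miR-2484 in 5, and both had the same count in FH heifer 22. bta-miR-2448-3p led in FH heifer 25 with 20.8% of the counts of the range, and bta-miR-2427 in SFH heifer 23 with 13.3%. In SFH heifer 28, bta-miR-2484 alone took 58.1%.

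**Figure D2:**
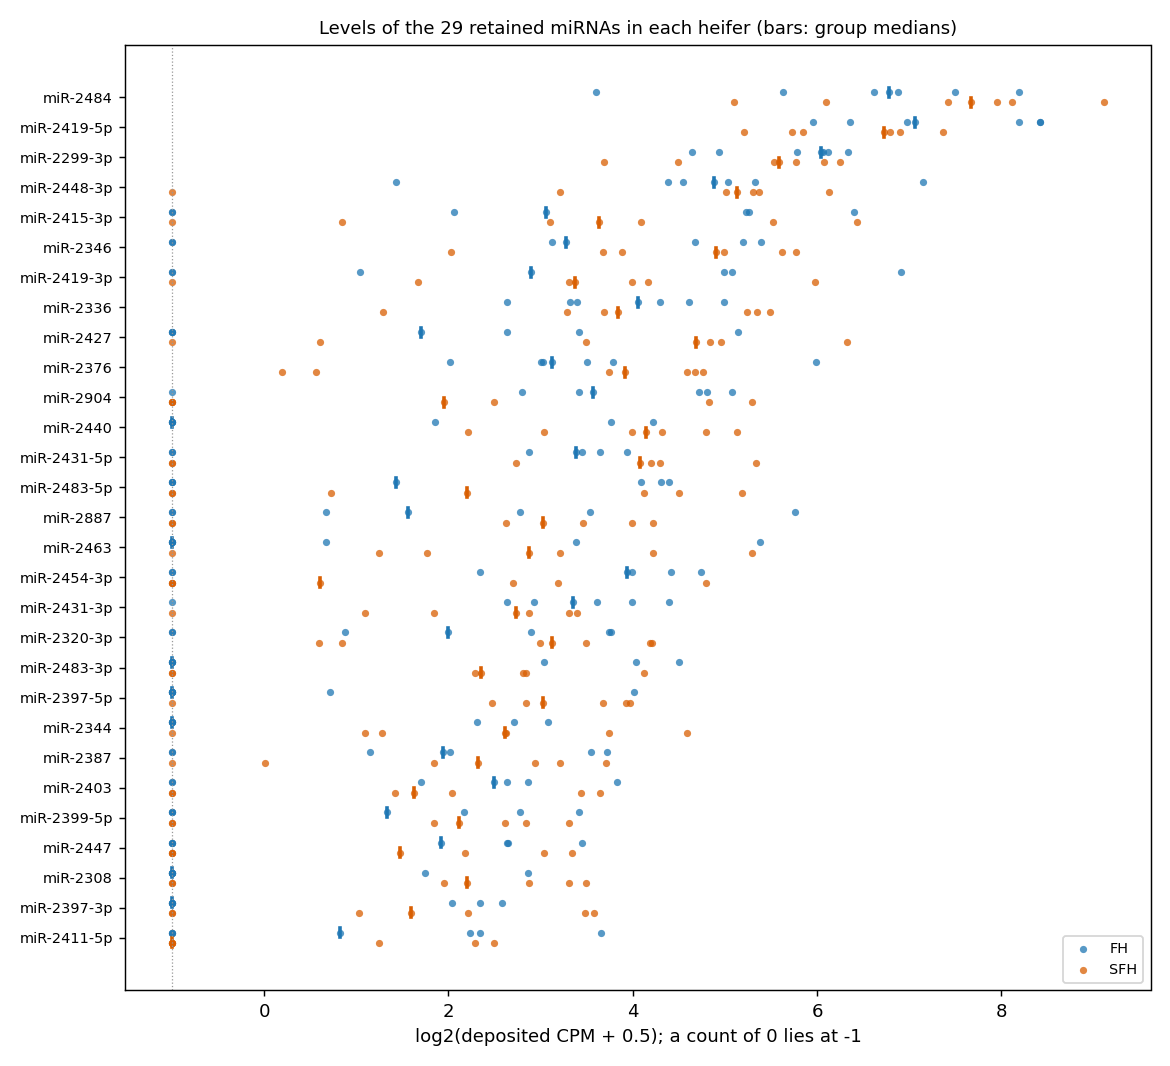
Level of each of the 29 retained miRNAs (rows, ordered by mean CPM) in each heifer, as log2 of the deposited CPM plus 0.5 (x axis). Points are heifers, 7 FH and 7 SFH, vertical bars are group medians, and the dotted line marks a count of 0, where at least 1 heifer lies for 24 of the 29 miRNAs.

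bta-miR-2484 was the most abundant of the 261 names, which do not include the 3 left out by the rule. Its precursor overlaps an uncharacterized protein-coding gene, LOC112445178, next to ARHGEF6. It was measured at 11.6 to 292 CPM in FH (median 109) and 33.8 to 553 CPM in SFH (median 203). FH heifer 25 was the lowest and SFH heifer 28 the highest, 5 SFH heifers lay above the FH median, and the groups overlapped. The log2 fold change was 0.82 (SE 0.55) and did not pass the test (edgeR's quasi-likelihood F-test, unadjusted p = 0.152, Benjamini-Hochberg adjusted p = 0.898). It was 0.39 without SFH heifer 28. Without the low-detection libraries, the log2 fold change was 1.65 (SE 0.69) with an unadjusted p of 0.0308 by edgeR's quasi-likelihood F-test and an adjusted p of 0.790, and the exact permutation test gave p = 0.133.

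bta-miR-2419-5p lies between NOD1, which encodes a sensor of bacterial peptidoglycan, and ZNRF2, a ubiquitin ligase gene. It had 61.5 to 342 CPM in FH (median 133) and 36.4 to 164 CPM in SFH (median 105). FH heifers 31, 20 and 22 lay above every SFH heifer, SFH heifers 28, 23 and 30 lay below every FH heifer, and the others overlapped. It was the only 1 of the 29 names past the study's thresholds for DEMIs, a p-value without adjustment up to 0.05 and a log2 fold change of 0.5 or more in either direction, with a log2 fold change of −1.15 (SE 0.41, edgeR's quasi-likelihood F-test, unadjusted p = 0.0110, Benjamini-Hochberg adjusted p = 0.415). Of the 341 miRNAs tested, 3.81% passed both thresholds and 2.35% passed them with a lower level in SFH. Leaving out 1 heifer at a time, the log2 fold change ran from −1.34 to −0.97 and stayed past the thresholds. In the exact permutation test p was 0.0478 on TMM-normalized CPM and 0.0705 on the deposited CPM. Of the 3 FH heifers with the highest levels, heifers 20 and 22 belonged to the low-detection libraries, and without those 4 libraries the log2 fold change was −0.69 (SE 0.48) and no longer passed (edgeR's quasi-likelihood F-test, unadjusted p = 0.168, adjusted p = 0.905).

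bta-miR-2440 had the largest log2 fold change of the 29 and lies inside RPL3, which encodes a protein of the large ribosomal subunit. It had a count in FH heifers 20, 24 and 27 only, with 0 to 18.2 CPM in FH (median 0), and in every SFH heifer, with 4.13 to 34.4 CPM (median 17.2). All 7 SFH heifers lay above the FH median and 3 of them, heifers 32, 26 and 23, above every FH heifer, while the groups still overlapped. The exact permutation test of log2(CPM + 0.5) after TMM normalization gave p = 0.0128 (adjusted p = 0.416), and edgeR gave a log2 fold change of 1.85 (SE 1.25) with an unadjusted p of 0.153 and an adjusted p of 0.898 in the quasi-likelihood F-test. Without the low-detection libraries, bta-miR-2440 was present in 2 of 4 FH and 6 of 6 SFH heifers, and the exact permutation p was 0.0238. On the same heifers edgeR gave a log2 fold change of 2.15 (SE 1.30, quasi-likelihood F-test, unadjusted p = 0.118, adjusted p = 0.843).

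bta-miR-2397-5p, inside GLRX3, a glutaredoxin gene, was present in FH heifers 24 and 25 only (0 to 15.6 CPM, median 0) and in 6 of 7 SFH heifers (0 to 15.2 CPM, median 7.65). FH heifer 25 had the highest level of all heifers. The exact permutation test gave p = 0.0291 (adjusted p = 0.544), while the log2 fold change by edgeR was 1.75 (SE 1.45, quasi-likelihood F-test, unadjusted p = 0.242, adjusted p = 0.947). Without FH heifer 25 the log2 fold change was 5.50 and passed the thresholds (edgeR's quasi-likelihood F-test, unadjusted p = 0.00271), and without the low-detection libraries the exact permutation p was 0.195. The partner arm bta-miR-2397-3p was present in 3 FH heifers (0 to 5.49 CPM) and 5 SFH heifers (0 to 11.5 CPM), with a log2 fold change of 1.06 (SE 1.47).

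The remaining names among the 10 most abundant did not pass the test in either direction. bta-miR-2299-3p, inside B3GLCT, a glucosyltransferase gene, had 24.4 to 79.9 CPM in FH (median 65.6) and 12.4 to 75.5 CPM in SFH (median 47.5). FH heifer 22 lay above every SFH heifer and SFH heifers 28 and 30 below every FH heifer, with a log2 fold change of −0.34 (SE 0.46). bta-miR-2448-3p, from the stretch between CC2D2A and FBXL5, had 2.19 to 142 CPM in FH (median 29.1) and 0 to 69.5 CPM in SFH (median 34.4). FH heifer 25 held the highest level, with the next FH heifer at 39.5 CPM, and the log2 fold change of −0.44 (SE 0.84) was 0.31 without that heifer.

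bta-miR-2415-3p, inside a long noncoding RNA gene between ST3GAL3 and KDM4A, had 0 to 83.8 CPM in FH (median 7.84) and 0 to 85.7 CPM in SFH (median 11.9). One heifer of each group, FH 24 and SFH 17, reached over 80 CPM, and the log2 fold change was −0.04 (SE 1.17). bta-miR-2346, inside ASPSCR1, whose product holds the glucose transporter GLUT4 inside the cell, was absent from FH heifers 20 and 29, with 0 to 41.6 CPM in FH (median 9.15) and 3.58 to 54.1 CPM in SFH (median 29.4). Its log2 fold change was 0.65 (SE 0.96), and −0.11 without the low-detection libraries, to which both of those FH heifers belong.

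bta-miR-2336, between VPS53 and RFLNB, had 5.73 to 31.4 CPM in FH (median 16.1) and 1.94 to 44.5 CPM in SFH (median 13.9). SFH heifers 30, 28 and 26 lay above every FH heifer and SFH heifer 23 below all of them, with a log2 fold change of 0.44 (SE 0.70). bta-miR-2427, inside FRS2, an adaptor of fibroblast growth factor receptors, had 0 to 34.8 CPM in FH (median 2.74) and 0 to 79.5 CPM in SFH (median 25.2). It was absent from 3 FH heifers and 1 SFH heifer, FH heifer 24 was the only FH heifer above the SFH median, and the log2 fold change of 1.68 (SE 1.29, edgeR's quasi-likelihood F-test, unadjusted p = 0.207) was 2.93 without that heifer (unadjusted p = 0.0495, edgeR's quasi-likelihood F-test). bta-miR-2376, inside TAPBP, which encodes the tapasin that helps to load peptides on MHC class I, had 3.55 to 62.8 CPM in FH (median 8.21) and 0.646 to 26.7 CPM in SFH (median 14.6). FH heifer 25 was highest, with the next FH heifer at 13.3 CPM, and the log2 fold change was −0.20 (SE 0.87) with it and 0.74 without it.

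Across the 29 names tested, 15 had a higher and 14 a lower fitted level in SFH, and the median log2 fold change was 0.05, beside 0.06 over all 341 miRNAs. An unadjusted p of at most 0.05 was reached by 1 name in edgeR's quasi-likelihood F-test, where 5.87% of all miRNAs reached it. In the exact permutation test 3 names did, bta-miR-2440, bta-miR-2397-5p and bta-miR-2419-5p, where 6.16% of all miRNAs did. On the deposited CPM 2 names did, without bta-miR-2419-5p, where 7.33% of all miRNAs did, and without the low-detection libraries 1 name did, bta-miR-2440, where 6.45% did. After Benjamini-Hochberg adjustment over the 341 miRNAs, 0 names passed in edgeR, where 0% of all miRNAs passed, and 0 passed by DESeq2 (0.587% of all miRNAs), limma-voom or the exact permutation test, whose smallest possible p was 0.000583. Past the thresholds without adjustment were 1 name by DESeq2, where 4.69% of all miRNAs passed, and 3 names by limma-voom, where 6.74% passed. For 0 of the 29 names did the groups separate without overlap, beside 0 of all 341.

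The differences were large in size and poorly determined. The fitted log2 fold change was 0.5 or more in size for 16 of the 29 names, beside 106 of all 341 miRNAs. It was 1 or more for 10 names, beside 41 of the 341. But the standard error had a median of 1.26, beside 0.48 over all 341 miRNAs. It was above 1 for 22 names, beside 98 of the 341. The number past the thresholds was 1 or 2 when 1 heifer was left out, with bta-miR-2427 added without FH heifer 24, where 6.45% of all miRNAs passed, and bta-miR-2397-5p without FH heifer 25, where 4.4% passed. Without the low-detection libraries it was again 1, bta-miR-2484 in place of bta-miR-2419-5p, where 4.4% of all miRNAs passed.

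**Figure D3:**
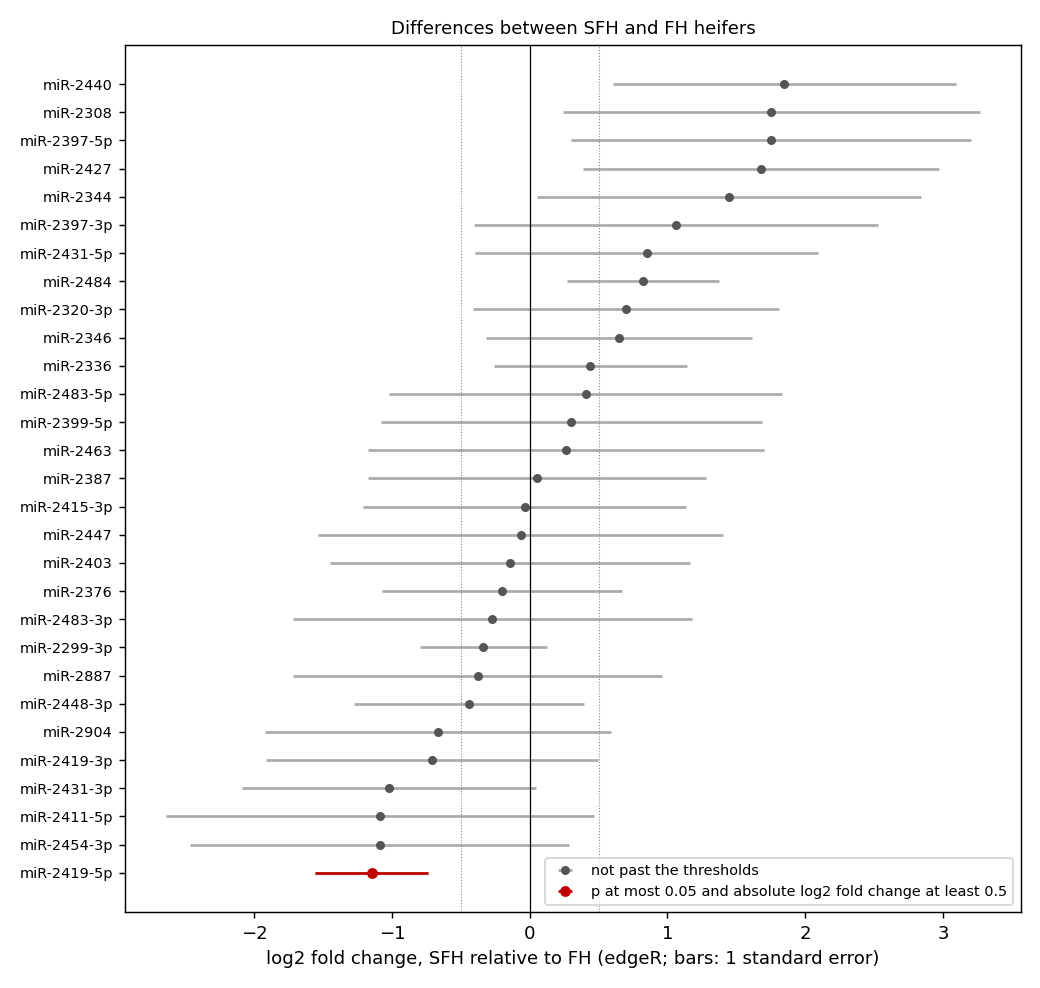
Log2 fold change of SFH relative to FH (x axis) for each of the 29 retained miRNAs (rows), from edgeR's quasi-likelihood fit with 7 heifers per group. Bars are 1 standard error and dotted lines mark an absolute log2 fold change of 0.5, and bta-miR-2419-5p at −1.15 is the point past both thresholds.

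Of the less abundant retained names, those with values above 0 in more SFH than FH heifers included bta-miR-2463, inside TMEM167A, with 3 FH heifers (0 to 41.1 CPM, median 0) and 6 SFH heifers (0 to 38.8 CPM, median 6.83). Its log2 fold change was 0.26 (SE 1.44), −0.45 without SFH heifer 32, 2.45 without FH heifer 29 and 2.12 without the low-detection libraries. bta-miR-2344, inside the tubulin cofactor gene TBCD, was likewise present in 3 FH heifers (0 to 7.98 CPM) and 6 SFH heifers (0 to 23.6 CPM), but without the low-detection libraries in 3 of 4 FH and 5 of 6 SFH heifers. Counts were found in more SFH than FH heifers for 15 of the 29 names, in more FH heifers for 4 and in equal numbers for 10. Over all 614 detected miRNAs these numbers were 232, 95 and 287, so the lean to SFH was not limited to these names. The FH median was 0 for 7 of the 29 names and the SFH median for 1. A heifer had 9.29 ± 4.23 of the 29 names at 0 in FH and 5.43 ± 4.54 in SFH (SD). The other retained miRNAs were also at 0 more often in FH, with 29.1 ± 17.9 per heifer against 19.6 ± 12.3 in SFH. Without the low-detection libraries, the share of heifers with a count was larger in SFH for 13 names, larger in FH for 7 and equal for 9. These shares and the medians of 0 are given for the 29 names only.

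Other retained names had a higher median in FH, or a level that rested on 1 library. bta-miR-2454-3p, inside DNMT1, the maintenance DNA methyltransferase gene, had 0 to 26.2 CPM in FH (median 14.8) and 0 to 27.1 CPM in SFH (median 1.03), with a log2 fold change of −1.09 (SE 1.37). It was −2.30 without SFH heifer 23, −0.64 without FH heifer 29 and −0.34 without the low-detection libraries. bta-miR-2904 had 0 to 33.3 CPM in FH (median 11.4) and 0 to 38.7 CPM in SFH (median 3.38), and bta-miR-2887, whose precursors include 1 inside a pseudogene, 0 to 53.6 CPM in FH (median 2.44) and 0 to 18.1 CPM in SFH (median 7.65). FH heifer 22 held 40.7% of the summed CPM of bta-miR-2887.

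The filter divided names of similar level. bta-miR-2308, inside ARHGAP39, and bta-miR-2411-5p, inside UBAP2L, were just inside it with counts in 7 heifers each and means of 3.15 and 2.39 CPM. bta-miR-2310, bta-miR-2424, bta-miR-2448-5p and bta-miR-2457 were just outside, with a CPM of at least 1 in 6 heifers each. Among these, bta-miR-2448-5p had 342 counts, of which 242 were from FH heifer 29, and bta-miR-2457 had 223 counts in 7 heifers, more than several names inside the filter.

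Both arms were annotated for 33 precursors of the range. Counts were found for 23 of these, on both arms for 14 and on 1 arm only for 9, of which 3 had the 5p arm and 6 the 3p arm. The 5p arm was higher in 10 and the 3p arm in 13. For the 12 precursors with at least 100 counts, the higher arm held 54.0 to 100% of the counts (median 80.9%) and over 90% in 4 of the 12, while for 40 precursors outside the range the median was 98.6% and 23 were over 90%. The numbers of counts differ between these sets, and the difference was not tested.

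**Figure D4:**
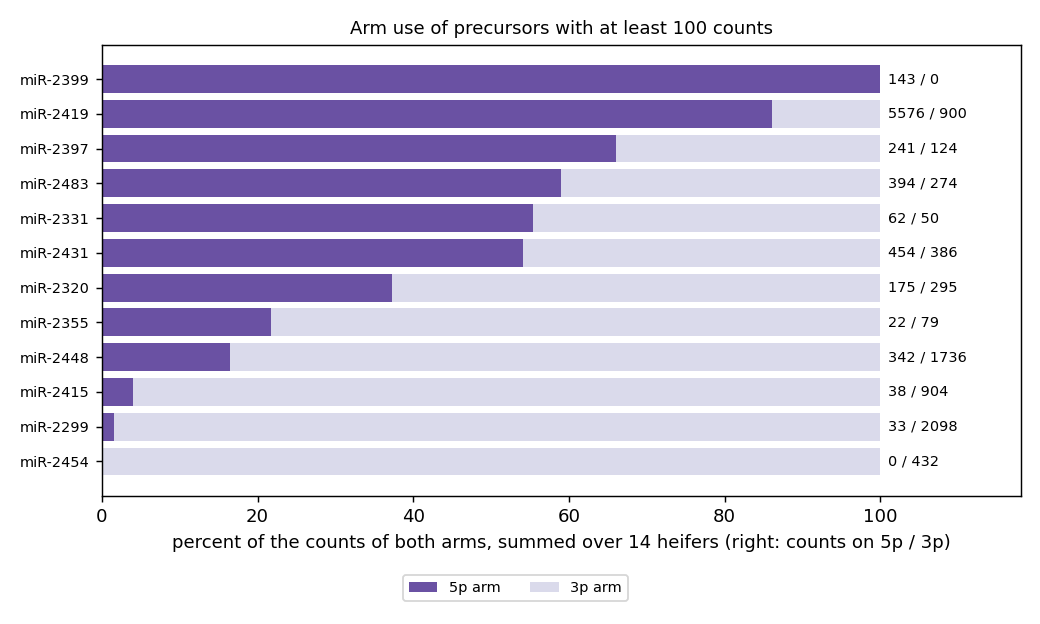
Percent of the counts of both arms that fell on the 5p (dark) and the 3p (light) arm, summed over the 14 heifers, for the 12 precursors of the range with at least 100 counts. Counts on each arm stand at the right, from 0 on the 5p arm of bta-miR-2454 to 5576 on the 5p arm of bta-miR-2419, and the bars run from 100% 5p for bta-miR-2399 to 100% 3p for bta-miR-2454.

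One arm took nearly all counts of bta-miR-2299 (33 on 5p and 2098 on 3p), bta-miR-2415 (38 and 904), bta-miR-2399 (143 and 0) and bta-miR-2454 (0 and 432). The arms were nearly balanced in bta-miR-2431 (454 on 5p and 386 on 3p), bta-miR-2483 (394 and 274) and bta-miR-2331 (62 and 50). Between these lay bta-miR-2448 (342 on 5p and 1736 on 3p), bta-miR-2320 (175 and 295), bta-miR-2397 (241 and 124) and bta-miR-2355 (22 and 79). bta-miR-2411-5p, with 117 counts, is the minor arm of a precursor whose 3p arm, left out of the range by the rule, had 27884 counts.

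A balance over all heifers was not a balance within each heifer. bta-miR-2431 had counts on both arms in 9 of 13 heifers, bta-miR-2483 in 6 of 11, and bta-miR-2331 in 0 of 5, where 58 of the 62 counts of its 5p arm came from FH heifer 29. For the precursor bta-miR-2448, 242 of the 342 counts of its 5p arm came from the same heifer, whose 3p arm reached 32.2 CPM.

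The share of the 5p arm in bta-miR-2419 could be compared in all heifers. It was 74.1 to 100% in FH (median 91.1%, mean 92.0 ± 9.17%, SD, n = 7) and 36.8 to 100% in SFH (median 91.8%, mean 83.5 ± 22.1%, SD, n = 7). SFH heifer 28 was the only heifer in which the 3p arm was higher, and the others overlapped. The difference of −8.57 percentage points was within the spread (exact two-sided permutation test, p = 0.441, adjusted p = 1 over 34 precursors), beside 5.88% of the 34 precursors with an unadjusted p of at most 0.05. Without SFH heifer 28 the difference was −0.795 percentage points. The 5p share of bta-miR-2299 was 0 in 11 of 14 heifers and at most 14.3%, in SFH heifer 32 (exact permutation test, p = 1), and that of bta-miR-2411 was at most 8.42%, in FH heifer 27 (exact permutation test, p = 0.282, adjusted p = 0.765).

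The 3p arm of bta-miR-2419 varied more than its 5p arm, with 0 to 120 CPM in FH (median 6.95) and 0 to 62.4 CPM in SFH (median 9.83). FH heifer 31 had the highest level and FH heifers 24 and 25 and SFH heifer 30 had none. Its log2 fold change was −0.71 (edgeR's quasi-likelihood F-test, adjusted p = 0.977), and 0.46 without FH heifer 31.

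Both arms passed the filter in 4 precursors, and the correlation of the arms across heifers had an unadjusted permutation p of at most 0.05 in 1 of them. For bta-miR-2397, Pearson's r of log2 levels was 0.64 (permutation test, p = 0.0185, adjusted p = 0.191) and Spearman's rho 0.68 (permutation test, p = 0.0107, adjusted p = 0.111) over 14 heifers, with adjustment over 31 pairs of arms. Leaving out the 2 heifers with the most extreme 5p levels gave an r of 0.55. Within groups r was 0.70 in FH and 0.54 in SFH. Neither arm had a count in FH heifers 20, 22, 27 and 29 and SFH heifer 28, so that these heifers share the lowest value on both arms. For bta-miR-2419, r was 0.30 (permutation test, p = 0.298) and rho 0.24 (permutation test, p = 0.405), with 0.73 within FH and −0.20 within SFH, and 0.51 without the 2 most extreme heifers. For bta-miR-2431 and bta-miR-2483, r was 0.06 (permutation test, p = 0.857) and 0.08 (permutation test, p = 0.767), and rho −0.04 (permutation test, p = 0.882) and 0.06 (permutation test, p = 0.843). After adjustment 0 of the 31 pairs passed, and 4 had an unadjusted p of at most 0.05 for Pearson's r.

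The spread between heifers was wide for most retained names. The SD of log2(TMM-normalized CPM + 0.5) within groups was 0.79 to 2.80 (median 1.89), beside a median of 0.80 for the other 312 retained miRNAs. The gap differed with the level. At 1 to 5 CPM the medians were 1.85 for 8 names and 1.94 for 22 other miRNAs. At 10 to 30 CPM the medians were 2.41 for 9 names and 1.78 for 50 other miRNAs, and 19.0% and 10.3% of the values were counts of 0. The 2 names at 100 to 1000 CPM had a median of 1.13, beside 0.51 for 80 other miRNAs. These are descriptions of the names at each level and were not tested.

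**Figure D5:**
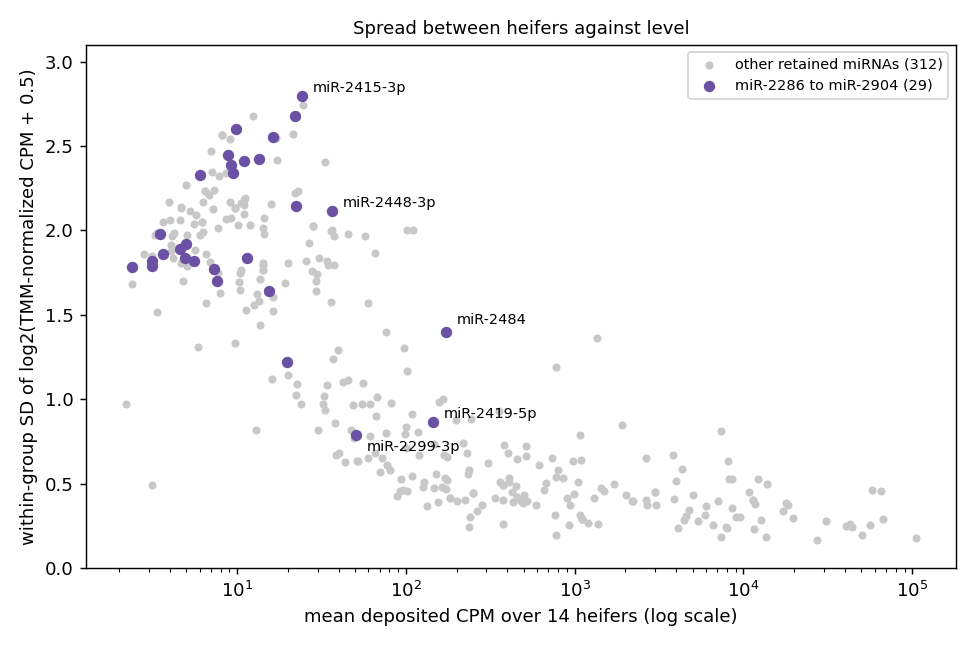
Within-group SD of log2(TMM-normalized CPM + 0.5) (y axis) against the mean deposited CPM over 14 heifers (x axis, log scale), where each point is 1 retained miRNA. The 29 miRNAs of the range lie between 0.79 (bta-miR-2299-3p) and 2.80 (bta-miR-2415-3p), among the grey points of the 312 other miRNAs.

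The steadiest names were bta-miR-2299-3p (SD 0.79), bta-miR-2419-5p (0.87), bta-miR-2336 (1.22), bta-miR-2484 (1.40) and bta-miR-2376 (1.64), which are also the 5 with a count in every heifer. The most variable were bta-miR-2415-3p (2.80), bta-miR-2419-3p (2.68), bta-miR-2483-5p (2.60), bta-miR-2427 (2.55) and bta-miR-2454-3p (2.45). bta-miR-2483-5p, inside TENM1 on the same precursor as bta-miR-2483-3p, had 0 to 20.5 CPM in FH and 0 to 35.9 CPM in SFH, with no count in 5 of 14 heifers. Of the 406 values of the 29 names, 103 (25.4%) were counts of 0, beside 7.81% for the other retained miRNAs, and no value above 0 was lower than 2 counts. A single heifer held over 25% of the summed CPM for 13 of the 29 names, in a range of 11.2 to 40.7%, and this heifer was FH for 15 names and SFH for 14.

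By name, 257 of the 261 were matched to a precursor gene by RefSeq (assembly ARS-UCD2.0), and 77.4% of these overlapped a protein-coding gene. The share was similar for detected (78.1% of 105) and undetected names (77.0% of 152), and 20 of the 28 retained names that were matched overlapped one (71.4%). These hosts included genes that most cells use, such as RPL3, DNMT1 and TBCD, genes of cell cycle or transcription control, such as LIN54 (with bta-miR-2447) and GTF2IRD1 (with bta-miR-2387), and the solute carrier gene SLC16A9 (with bta-miR-2403). bta-miR-2431 lay inside a long noncoding RNA gene between LRP1 and STAT6, whose product carries the signal of interleukin 4. For 4 retained names, both arms of bta-miR-2419, bta-miR-2336 and bta-miR-2448-3p, no other gene overlapped. The levels of the host genes were not analysed here.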

How the data were processed

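Small RNA from PWBC of 14 heifers was sequenced as single-end 50 bp reads after library preparation with the NEXTflex kit and PCR. Per the methods, the authors removed adapters and end bases with Cutadapt, aligned the reads with miRDeep2 to ARS-UCD1.2 and to miRBase precursors and mature miRNAs, and deposited unnormalized counts per mature miRNA and precursor. The CPM values deposited by the authors cover the 341 retained miRNAs and equal the counts over their total in each heifer. Names and versions in the submitters' notes also include FastQC 0.11.9, edgeR 3.28.1 and DESeq2 1.26.0.

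The mature names numbered 2286 to 2904 were taken from the 1207 lines of the count table, and for a repeated name the line with the highest total was used. Members, lists and tests were chosen with earlier results of these data known. miRNAs with CPM of at least 1 in at least 7 heifers were tested with edgeR 4.0.16 (TMM, quasi-likelihood F-test, group as the only term) in R 4.3.3 and by exact two-sided permutation over 3432 splits on log2(CPM + 0.5), with Benjamini-Hochberg adjustment over all miRNAs tested. Each SE was derived from the log2 fold change and the F value. Presence was compared by Fisher's exact test, arm use as percent 5p where the 2 arms together had at least 10 counts in every heifer, and arms by correlation with 100000 permutations. DESeq2 1.42.0, limma-voom 3.58.1, other scalings, filters, treatments of repeated lines, pseudocounts, a depth covariate and each heifer left out in turn were alternatives. The scripts ran in Python 3.11.15 with numpy 2.4.6, pandas 2.3.3 and scipy 1.17.1 and were tested on simulated data.

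The text names the 10 most abundant names, those with the 5 smallest p-values, the 5 smallest and 5 largest SDs, names past the thresholds, arms of retained precursors, names with a letter suffix and those next to the filter limit. Others, such as names found in 1 heifer, bta-miR-2441 and further retained names, were chosen after their values were seen. Mature sequences were not used here, so names were not grouped by seed. The annotation is of another assembly than the counts and gave gene names and neighbours only.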

Additional observations from a re-analysis of the deposited data

Results flagged for a closer look

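Dixon's ratio was taken on the log2 scale for the 22 retained names that the naming rule chose. In 5 of 44 groups, a heifer stood apart from the other 6 of its group. The rate of about 1 in 20 given by chance holds for normal values. These names were chosen partly by their spread and p-values, and some flagged values are counts of 0. The number of groups flagged can therefore not be set against chance. FH heifer 25 had 62.8 CPM of bta-miR-2376, with the next FH heifer at 13.3 CPM, and 15.6 CPM of bta-miR-2397-5p, with the next at 1.14 CPM. SFH heifer 28 had 0 CPM of bta-miR-2397-5p, with the next lowest SFH heifer at 5.05 CPM. FH heifer 22 had 0 CPM of bta-miR-2431-3p, with the next lowest FH heifer at 5.73 CPM. SFH heifer 30 had 0 CPM of bta-miR-2448-3p, with the next lowest SFH heifer at 8.72 CPM. FH heifer 22 and SFH heifer 30 are among the 4 low-detection libraries.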

How the results depend on the processing

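The count past the thresholds was 1 with other scaling factors, DESeq2, a stricter filter (4 names tested), repeated lines kept or summed, and the depth covariate, 1 to 2 with 1 heifer left out, 3 by limma-voom (20 names higher and 9 lower in SFH) and 44 of 109 without a filter, where 126 of 614 miRNAs (20.5%) passed. The adjusted count was 0 throughout. Scaling by library totals put the median log2 fold change of all miRNAs at 0.12. Names detected in SFH averaged 26.6 at 10 counts or more, the share of counts without the most abundant name was 0.0523% in SFH and 0.0591% in FH, so that its direction turned, and the median SD was 1.21 with a pseudocount of 2 and 0.927 as a median absolute deviation. Leaving out the 4 low-detection libraries was chosen after seeing the data, and 1 name then passed the permutation test. On the deposited CPM 2 names did. Signs turned with the depth covariate (bta-miR-2376 0.21, bta-miR-2447 0.056), with every line kept (bta-miR-2387 −0.020), by limma-voom (bta-miR-2415-3p 0.71, bta-miR-2419-3p 0.42, bta-miR-2447 0.28, bta-miR-2483-3p 0.73, bta-miR-2887 0.38) and without the low-detection libraries (bta-miR-2346 −0.11, bta-miR-2387 −0.18, bta-miR-2447 0.50, bta-miR-2483-5p −0.10, bta-miR-2887 2.29). Causes were not tested. No paired analysis was possible because each heifer belongs to 1 group and the labels give no pairing. With 1 heifer left out, 36 of 406 fitted values of single names turned sign, with ranges of −0.41 to 0.74 for bta-miR-2376, −0.32 to 0.52 for bta-miR-2387, −0.068 to 0.91 for bta-miR-2399-5p, −0.64 to 0.34 for bta-miR-2403, −0.79 to 0.70 for bta-miR-2415-3p, −1.62 to 0.46 for bta-miR-2419-3p, −0.61 to 0.46 for bta-miR-2447, −0.77 to 0.31 for bta-miR-2448-3p, −0.45 to 2.45 for bta-miR-2463, −0.88 to 0.50 for bta-miR-2483-3p, −0.22 to 0.79 for bta-miR-2483-5p and −0.69 to 1.17 for bta-miR-2887. The difference in the 5p share of bta-miR-2299 ran from −1.20 to 1.90 percentage points.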
